A study of Homo sapiens with 5 samples.

Results

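SEC61G encodes the gamma subunit of the SEC61 translocon, and its mRNA was far lower in gefitinib-resistant HCC827/GR cells than in parental HCC827 cells. None of the 8 partner genes tested was called lower, but only 5.71% of all entries tested were, so that this count is near the background. A set of 10 translocon genes was examined, of which SEC61G was chosen by its strong fall in this very comparison and the others (SEC61A1, SEC61A2, SEC61B, SEC62, SEC63, SSR1, SSR2, SSR3 and SSR4) by their place in the same machinery. The values of SEC61G between the cells are therefore given as a description without a test. Of the 10 genes, 9 had an entry under their symbol among the 37181 entries of the expression table, and all 9 passed the minimum mean of 0.5 FPKM, as 16189 entries did. SSR1 had no entry under its own symbol. FPKM counts fragments scaled for transcript length and for the mapped fragments of the library, so that levels of different genes can be set side by side, with the limit that the labels name a small RNA kit and the methods an rRNA-depleted library.

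HCC827 is a human lung adenocarcinoma cell line whose EGFR carries an exon 19 deletion, and HCC827/GR was derived from it by more than 6 months under rising doses of gefitinib, an EGFR inhibitor. Both carry the deletion and differ in the labels by drug sensitivity, resistant for HCC827/GR (3 RNA-sequencing libraries, replicates 1, 2 and 3) and sensitive for HCC827, labelled GS (2 libraries, replicates 2 and 3). There is 1 resistant line, and whether it is 1 clone and whether the replicates came from separate cultures was not given in the sources used here, so p-values measure only the spread between these libraries. The number of reads behind an FPKM value is unknown. In bulk RNA, fewer cells with a transcript and less of it per cell cannot be told apart.

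Proteins bound for secretion or for a membrane enter the endoplasmic reticulum through the SEC61 channel. The pore is built by an alpha subunit (SEC61A1 or its paralog SEC61A2), and the small beta (SEC61B) and gamma (SEC61G) subunits each cross the membrane once, with gamma clamping the alpha subunit. SEC62 and SEC63 help substrates that arrive after their synthesis, and SEC63 recruits the lumenal chaperone BiP. The SSR genes encode the TRAP complex, which sits beside the channel and helps the insertion of some signal sequences.

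Gamma and beta are the small subunits of one channel, of which only gamma had a large change in mRNA between the cells. Their coding sequences are shown. They were read from GENCODE release 29 on GRCh38, 5′ to 3′ in coding orientation, with the start and stop codons in capitals. The sequence of SEC61G has 207 bases and comes from coding exons within chr7:54752411-54757588 on the minus strand. The sequence of SEC61B has 291 bases and comes from coding exons within chr9:99222364-99230424 on the plus strand.
SEC61G: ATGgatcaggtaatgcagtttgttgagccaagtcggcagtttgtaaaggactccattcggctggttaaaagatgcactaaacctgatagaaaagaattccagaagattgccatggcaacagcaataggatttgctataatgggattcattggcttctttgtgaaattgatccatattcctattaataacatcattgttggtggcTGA
SEC61B: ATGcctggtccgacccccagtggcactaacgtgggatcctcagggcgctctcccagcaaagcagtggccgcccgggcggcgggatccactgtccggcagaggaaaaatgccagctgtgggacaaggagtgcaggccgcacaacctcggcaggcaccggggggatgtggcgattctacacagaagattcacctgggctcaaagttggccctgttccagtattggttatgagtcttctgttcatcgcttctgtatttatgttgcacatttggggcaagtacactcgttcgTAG

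In the HCC827 libraries SEC61G stood at 311.4 and 312.7 FPKM, and in the HCC827/GR libraries at 15.4, 16.9 and 20.7 FPKM. The groups were far apart, and within each group the libraries were close to each other. The mean was 312.1 ± 0.966 FPKM (SD, n = 2) in HCC827 cells and 17.7 ± 2.69 FPKM (SD, n = 3) in HCC827/GR cells, so that the mean FPKM was 17.7 times higher in the parental cells. On the scale of log2(FPKM + 1), on which all changes are given here as HCC827/GR against HCC827, this is a log2 fold change of -4.08, which ranked 8 by size of fall among the 16189 entries tested. In the parental libraries 99.8% of the tested entries had a lower level than SEC61G, and in HCC827/GR replicates 1, 2 and 3 it was 89.95%, 91.0% and 92.7%. In the resistant libraries it therefore still exceeded most tested entries.

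**Figure D1:**
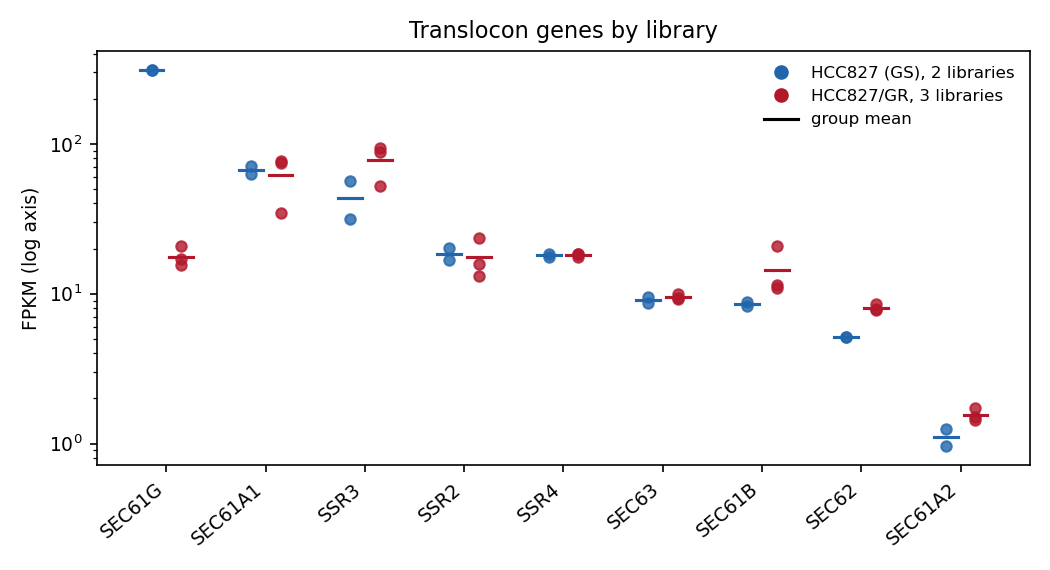
FPKM of the 9 translocon genes found in the table (vertical axis, log scale) for each library of HCC827 (blue, 2 libraries) and HCC827/GR (red, 3 libraries), with a bar at each group mean. SEC61G is the highest gene in both parental libraries and lies between 15.4 and 20.7 FPKM in the resistant libraries, while no other gene shows a fall of that size.

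The alpha subunit gene SEC61A1, which encodes the pore, had 63.0 and 71.3 FPKM in the HCC827 libraries and 34.4, 74.3 and 76.7 FPKM in the HCC827/GR libraries. The groups overlapped, and HCC827/GR replicate 1 was the lowest of the 5 while the other two resistant libraries were the highest. Its log2 fold change was -0.20 (95% interval -1.22 to 0.82, adjusted p = 0.795 in limma, with the Benjamini-Hochberg method applied to all entries tested), and without HCC827/GR replicate 1 it was 0.17. SEC61A2, the paralog with low expression, had 0.959 and 1.25 FPKM in the HCC827 libraries and 1.502, 1.72 and 1.44 FPKM in the HCC827/GR libraries. All resistant libraries were above both parental ones, but the log2 fold change of 0.28 (interval -0.04 to 0.60, adjusted p = 0.226) did not pass the test.

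SEC61B, the beta subunit, had 8.30 and 8.81 FPKM in the HCC827 libraries and 20.9, 10.97 and 11.4 FPKM in the HCC827/GR libraries. The resistant libraries were all higher, the opposite side from SEC61G, with replicate 1 well above the other two. The log2 fold change of 0.63 (interval -0.14 to 1.41) had an adjusted p of 0.260 in limma, and without HCC827/GR replicate 1 it fell to 0.35, with an adjusted p of 0.173.

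SEC62 was the partner that passed the test. It had 5.11 and 5.14 FPKM in the HCC827 libraries and 7.75, 8.50 and 7.94 FPKM in the HCC827/GR libraries, without overlap. Its log2 fold change was 0.56 (standard error 0.088, interval 0.34 to 0.79, adjusted p = 0.0259), or 1.57 times the parental mean FPKM. With any one of the 5 libraries left out the log2 fold change lay between 0.53 and 0.59, but the adjusted p rose above the threshold, to 0.0806, 0.0808 and 0.0684 without HCC827/GR replicate 1, 2 and 3 and to 0.0988 and 0.0908 without HCC827 replicate 2 and 3. With the replicate number as a block it was 0.154 and in Ballgown's model 0.184. The antisense gene SEC62-AS1 has its own entry at 1.01 to 1.40 FPKM, and whether the counting used strand was not given in the sources used here, so reads of the pair cannot be told apart. SEC63 had 9.46 and 8.70 FPKM in the HCC827 libraries and 9.27, 10.02 and 9.42 FPKM in the HCC827/GR libraries. These overlapped, with a log2 fold change of 0.07 (interval -0.17 to 0.31, adjusted p = 0.691).

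Among the TRAP genes tested, SSR4 had the smallest change, with 17.5 and 18.5 FPKM in parental and 18.5, 17.4 and 18.5 FPKM in resistant libraries and a log2 fold change of 0.01 (interval -0.22 to 0.24, adjusted p = 0.955). SSR2 had 16.8 and 20.1 FPKM in the parental and 13.2, 15.9 and 23.5 FPKM in the resistant libraries, which spread on both sides of the parental ones (log2 fold change -0.10, interval -0.78 to 0.58, adjusted p = 0.849). SSR3 had 31.3 and 56.3 FPKM in the parental and 52.1, 88.8 and 93.2 FPKM in the resistant libraries. Its log2 fold change of 0.83 was the highest of the partners, but the parental libraries themselves differed and the groups overlapped (interval -0.14 to 1.80, adjusted p = 0.240). The transcripts of SSR1 were joined under the symbol CAGE1, its neighbour on chromosome 6, in an entry with 11 GENCODE transcripts of which 10 belong to SSR1. That entry had 10.02 and 4.45 FPKM in the HCC827 libraries and 10.2, 10.7 and 5.02 FPKM in the HCC827/GR libraries, so each group held low and high values. It is not counted among the partners below.

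Of the 8 partners tested, 1 was called higher (SEC62) and 0 lower at an adjusted p under 0.05. Over all entries 5.26% were called higher and 5.71% lower, so that the partners' counts are near the background. At an unadjusted p under 0.05 the counts were again 1 higher and 0 lower, where 13.4% of all entries were higher and 13.8% lower. Ballgown's model called 0.0803% of all entries, so its count of 0 partners tells nothing about them. The partners' median log2 fold change was 0.18 against 0.00 for all entries tested, and 6 were above and 2 below zero. In 3 partners (SEC61A2, SEC61B and SEC62) all HCC827/GR libraries lay above all HCC827 libraries and in 0 they lay below, while over all entries 22.8% lay above and 23.4% below. Leaving out any one library kept the median between 0.14 and 0.23.

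**Figure D2:**
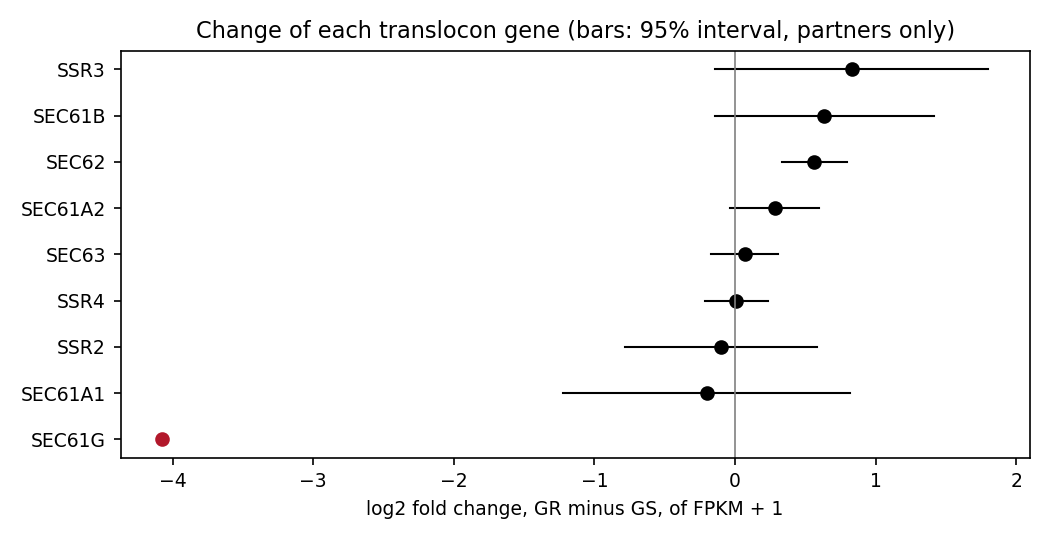
Log2 fold change of FPKM + 1 (horizontal axis, HCC827/GR minus HCC827) for the 9 translocon genes, with limma's 95% interval as a bar for the 8 partners. The partners lie between -0.20 and 0.83, and SEC61G, shown without an interval because it was chosen for this change, lies at -4.08.

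Compared within each library, the balance of the channel's mRNAs changed with SEC61G. The FPKM of SEC61G was 4.94 and 4.39 times that of SEC61A1 in the HCC827 libraries and 0.449, 0.228 and 0.269 times in the HCC827/GR libraries. Against SEC61B it was 37.5 and 35.5 times in the parental libraries and 0.740, 1.54 and 1.81 times in the resistant ones. For each of the 8 partners the ratio was lower in all resistant libraries than in both parental ones, by between 3.95 (SEC61A1) and 5.00 (SSR3) on the log2 scale of the ratio. These ratios share the value of SEC61G in their numerator, and they carry no test.

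**Figure D3:**
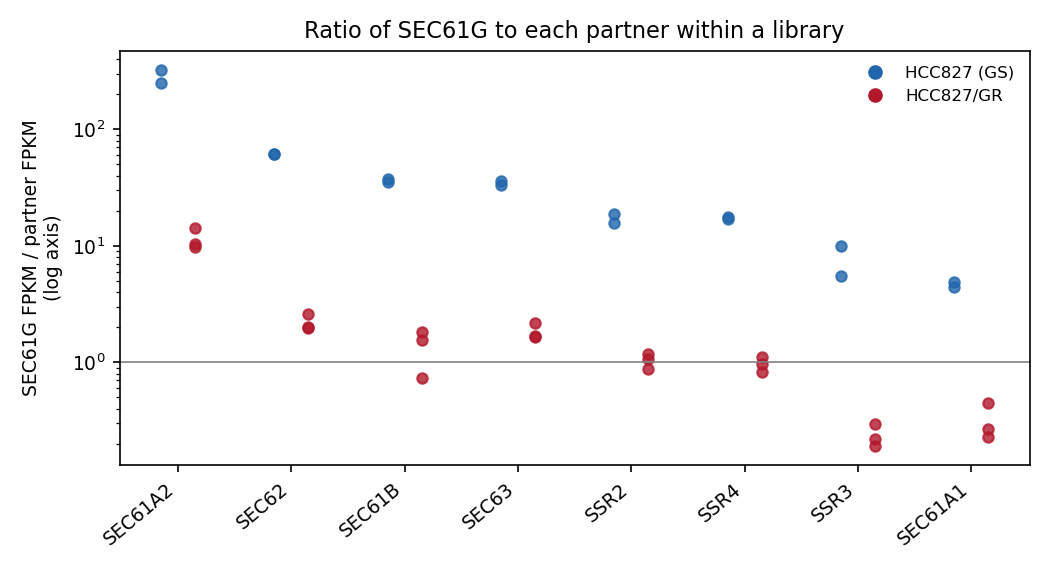
Ratio of the FPKM of SEC61G to that of each partner (vertical axis, log scale) in each HCC827 (blue) and HCC827/GR (red) library, with a line where both are equal. Every parental ratio is at least 4.39. The ratios to SEC61A1 and SSR3 lie below 1 in all resistant libraries, and those to SEC61B, SSR2 and SSR4 in some of them.

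Of the summed FPKM of SEC61A1, SEC61A2, SEC61B and SEC61G, SEC61G made up 81.2% and 79.4% in the HCC827 libraries and 21.4%, 16.3% and 18.7% in the HCC827/GR libraries. SEC61A1 made up 16.4% and 18.1% in the parental and 47.6%, 71.5% and 69.6% in the resistant libraries. SEC61G is part of the sum, so its fall by itself raises the shares of the other genes. The shares carry no test. The FPKM summed over SEC61A1, SEC61A2 and SEC61B was 72.3 and 81.3 in the parental and 56.8, 87.0 and 89.6 in the resistant libraries. The groups overlapped in that sum, with HCC827/GR replicate 1 as the lowest library.

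The order of the levels changed mainly through SEC61G. In both parental libraries SEC61G ranked first, followed by SEC61A1 and SSR3. SSR2 and SSR4 came next without a difference beyond their spread, as did SEC61B and SEC63 after them, and SEC62 and then SEC61A2 were lowest. In each HCC827/GR library SSR3 was highest and SEC61A1 came next, the reverse of their order in both parental libraries, although their values overlapped across the resistant libraries. SEC61G ranked 5, 4 and 4 of the 9 genes in replicates 1, 2 and 3, among SSR2, SSR4 and SEC61B, whose values overlapped with its own. SEC63, SEC62 and SEC61A2 followed in this order in all resistant libraries.

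The genes lie on 7 chromosomes. GENCODE 29 (GRCh38) places the protein-coding gene SEC61G at chr7:54752250-54759974 on the minus strand, next to EGFR, while SEC61A1, SSR3 and SEC62 lie far apart on chromosome 3 and the others on chromosomes 10, 9, 6, 1 and X. For each gene, the 5 tested protein-coding genes on either side were described, taken by gene order without a limit on distance. Around SEC61G the median log2 fold change was -1.02, with 7 of 10 genes called lower and 0 higher, against 5.71% and 5.26% of all entries. On the side away from EGFR, UPP1 and FIGNL1 were called lower (-0.52 and -0.98). COBL, GRB10 and DDC, which lie nearer to SEC61G on that side, were not called (-0.20, 0.46 and -0.18). EGFR, the receptor targeted by gefitinib, had 70.8 and 56.4 FPKM in the parental and 7.82, 5.78 and 3.52 FPKM in the resistant libraries (log2 fold change -3.31, adjusted p = 0.00926). LANCL2, the next tested protein-coding gene on the same side, had 35.8 and 41.8 FPKM in the parental and 6.92, 6.74 and 7.28 FPKM in the resistant libraries (-2.31, adjusted p = 0.00223). Around each of the 8 partners the median lay between -0.09 (SEC61A1) and 0.19 (SSR2), and at most 2 of the 10 neighbours were called. Around SEC62, whose own log2 fold change was 0.56, the median was 0.03, with 1 neighbour called lower and 0 higher.

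**Figure D4:**
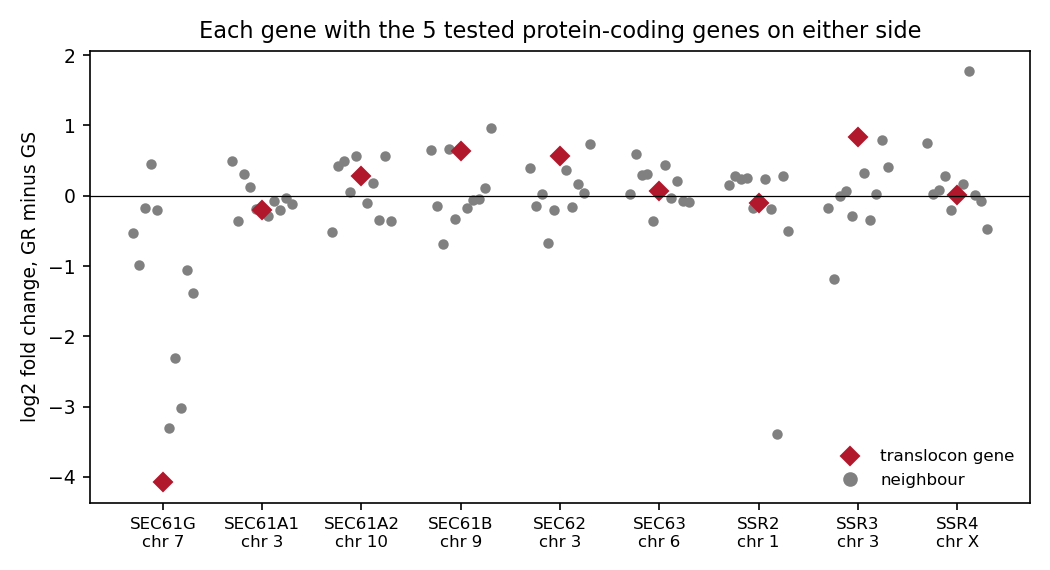
Log2 fold change (vertical axis, HCC827/GR minus HCC827) of each translocon gene (red diamond) and of the 5 tested protein-coding genes on either side of it (grey points, in gene order and not to distance). The genes to the right of SEC61G, EGFR to PSPH, lie between -3.31 and -1.05, whereas the neighbours of each partner centre near zero.

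The named entries whose profile over the 5 libraries was most like that of SEC61G were found by the Euclidean distance between profiles of log2(FPKM + 1), each centred on its own mean, among 13888 named entries tested. The closest were AC084116.4 (distance 0.328), KRT16P1 (0.376), AC009495.1 (0.419), ESRP1 (0.491), an epithelial splicing regulator, and FAAH2 (0.510), a fatty acid amide hydrolase. AC084116.4 had 42.1 and 38.2 FPKM in the parental and 1.76, 1.79 and 2.19 FPKM in the resistant libraries. KRT16P1, AC009495.1, ESRP1 and FAAH2 were at most 0.1002 FPKM in the resistant libraries, so their change on this scale is limited by the pseudocount of 1. By the same distance EGFR ranked 28 and LANCL2 54, while the partners ranked from 4102 (SEC61A1) to 13048 (SSR3). The profile of SEC61G is mainly the fall for which it was chosen, so these ranks largely restate each gene's log2 fold change.

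Copies elsewhere in the genome can share reads with a gene. The coding sequence of SEC61G matched no transcript of another GENCODE 29 gene at 90% identity or more over at least 100 bases, and neither did those of SEC61A2, SEC62, SSR1 and SSR4. SEC63 matched its processed pseudogene SEC63P1 at 97.7% identity over 1259 bases, and the entry of SEC63P1 held between 0.249 and 0.669 FPKM against at least 8.70 for SEC63. SEC61B matched the processed pseudogene AC023232.1 at 94.7% over 285 bases, SSR3 matched AC103591.1 at 94.95% over 555 bases, and AC103591.1 was listed at 0 in all 5 libraries. SEC61A1 shared 164 bases with RUVBL1 and matched the pseudogene AC018639.1, and SEC63 and SSR2 overlap the antisense genes AL024507.2 and AL355388.3. SSR4P1, the remaining pseudogene named after a member with a value above 0, reached 0.171 FPKM. How far reads were shared was not tested. The table also holds a second entry named SEC61G with no annotated transcript, at 0 and 11.6 FPKM in HCC827 replicates 2 and 3 and at 0.560, 0.610 and 0.523 FPKM in the HCC827/GR libraries. Summing both entries gave SEC61G a log2 fold change of -4.06.

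Many genes that serve the endoplasmic reticulum carry the ER stress response element (ERSE) in their promoters, which is CCAAT and CCACG with 9 bases between them. All 10 genes were in RefSeq's table of promoters (short windows of bases before each gene's start, GRCh38.p14). On either strand 0 of them held the full element, which stood in 0.0769% of all promoter windows. CCAAT alone was in 6 of the 10 and in 34.6% of all windows, and CCACG alone in 9 of the 10, all but SEC61B, and in 38.1% of all windows. A gene counted when any of its windows matched, whereas the shares are of single windows. The counts of genes therefore cannot be compared with these shares. A match is a description only.

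The wider translocation machinery was examined in lists of 67 genes, of which 63 were found and tested. Of these, 1 was called lower and 1 higher, again against 5.71% and 5.26% of all entries, and the median log2 fold change was 0.07. The gene called higher was TRAM1, a membrane protein beside the channel, with 23.8 and 21.3 FPKM in the parental and 37.0, 46.3 and 50.9 FPKM in the resistant libraries (log2 fold change 0.95, adjusted p = 0.0331). The gene called lower was MAGT1, an oxidoreductase subunit of the oligosaccharyltransferase that also serves magnesium transport, with 19.3 and 14.8 FPKM in the parental and 9.50, 6.86 and 7.93 FPKM in the resistant libraries (-0.99, adjusted p = 0.0374). The groups did not overlap in either gene. MAGT1 lost its call when any one library was left out, and TRAM1 kept it, at an adjusted p of 0.0491, only without HCC827/GR replicate 1.

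In the signal recognition particle and its receptor, which bring ribosomes to the channel, 0 of 7 tested genes were called, and SRP54 came closest (log2 fold change 0.42, adjusted p = 0.0533). In the signal peptidase, which cleaves signal sequences, 0 of 5 were called, with SPCS3 closest (-0.37, adjusted p = 0.141). In the oligosaccharyltransferase, which adds N-glycans to entering chains, MAGT1 was the 1 gene of 10 called, and the median was 0.02. The other proteins associated with the translocon, TRAM1 among 11, had 10 genes above zero and the highest median of these lists, 0.34. NOMO1, NOMO2 and NOMO3, at 0.455, 0.348 and 0.343, were counted singly in that list, and its median is the value of NOMO3. Whether these NOMO genes share reads was not tested. TMEM147, a subunit of a complex at the channel that was singled out after its values were seen, had an adjusted p of 0.0502 with a log2 fold change of 0.51.

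In the ER membrane protein complex, an insertase, 0 of 10 were called, and EMC1 came closest (0.51, adjusted p = 0.135). In the GET pathway for tail-anchored proteins 0 of 7 were called, with GET1, listed as WRB, closest (0.28, adjusted p = 0.136). Among the chaperones of the lumen 0 of 13 were called. HSP90B1, the lumenal HSP90, came closest (-0.47, adjusted p = 0.0595). Counting the lists of this and the preceding paragraph together, the changes ran from -1.29 (MMGT1) to 1.35 (TRAM2), against -4.08 for SEC61G. Both ends were uncertain. MMGT1 had 28.4 and 3.06 FPKM in the parental and 12.1, 1.76 and 1.47 FPKM in the resistant libraries. Its interval in limma ran from -4.31 to 1.73 and so included -4.08. The interval of TRAM2 ran from -0.005 to 2.71. At an unadjusted p under 0.05, 7 of the 63 genes were lower and 12 higher, where 13.8% and 13.4% of all entries were. Ballgown's model called 0 of the 63, which at its 0.0803% over all entries tells nothing about the lists.

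**Figure D5:**
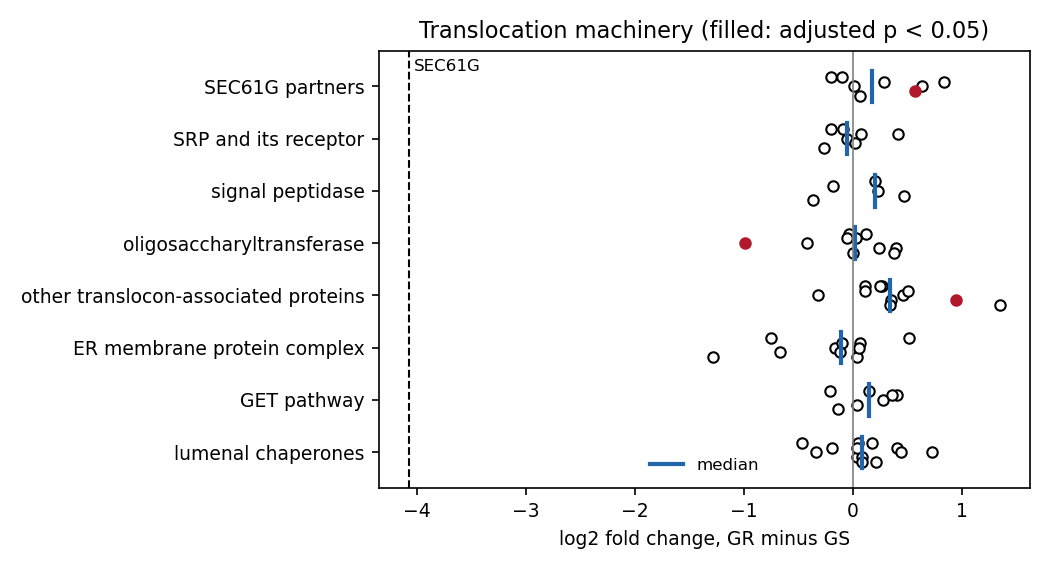
Log2 fold change (horizontal axis, HCC827/GR minus HCC827) of each tested gene in the 8 partners of SEC61G and in 7 lists of the translocation machinery, with the median of each list as a blue bar. Filled points are SEC62, MAGT1 and TRAM1, which had an adjusted p under 0.05, and the dashed line marks SEC61G at -4.08.

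The epithelial identity of the cells was checked with 6 markers, of which 5 had an entry. Their summed level was 1063 and 1182 FPKM in the HCC827 libraries and 443 to 573 FPKM in the resistant ones. Of the 5, 4 were called lower, against 5.71% of all entries, among them EPCAM (log2 fold change -3.04, adjusted p = 0.00349 in limma). The 6 fibroblast markers summed to 0.792 to 1.03 FPKM in the parental and 0.807 to 1.17 FPKM in the resistant libraries. COL1A1, at 0.391 to 0.860 FPKM, was the largest term of that sum in each library, while PDGFRB had 0.00777 and 0.0147 FPKM in the parental and 0.184 to 0.278 FPKM in the resistant libraries, and LUM had 0.0930 and 0.257 FPKM in the parental and at most 0.0255 FPKM in the resistant libraries. Of 5 leukocyte markers 4 had an entry, and their sum of 31.1 to 39.2 FPKM came from CD68, whose entry joins several genes, while PTPRC stayed at or below 0.0228 FPKM. Of the 3 endothelial markers, PECAM1 had 4.34 and 3.32 FPKM in the parental libraries and was listed at 0 in the resistant ones in the highest of its 10 entries. The other 9 entries named PECAM1 were not all at 0 in the resistant libraries, where they summed to 2.11 to 2.80 FPKM against 12.2 and 11.9 FPKM in the parental ones. CDH5 and VWF stayed at or below 0.0749 FPKM. The part of these marker changes in the fall of SEC61G was not tested.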

How the data were processed

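The authors trimmed reads with Cutadapt, mapped them with Bowtie2 and TopHat2, assembled transcripts with StringTie and estimated expression with StringTie and Ballgown, and they deposited 1 FPKM value per entry and library. Versions were not given in the sources used here. The submitters' processing notes list hg18, while the transcript identifiers of the table match GENCODE 29 (GRCh38), which gave gene positions for 31399 of the 37181 entries. The labels describe a small RNA kit with single-end reads, whereas the methods describe paired-end sequencing of rRNA-depleted RNA, so the library type behind the FPKM values, and with it how levels compare between genes, is uncertain. One FPKM column that matched no sample was left out (1 column).

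For each symbol the entry with the highest mean over the 5 libraries was used. HCC827/GR was compared with HCC827 with limma 3.58.1 in R 4.3.3 (two-sided, eBayes with its trend option) on log2(FPKM + 1). The 16189 entries whose mean reached 0.5 FPKM were tested, with Benjamini-Hochberg adjustment over all of them. The pseudocount understates the change of low genes. FPKM gives no counts, so no count model was used and no counting error is given. Coding sequences were compared with annotated transcripts with BLAST 2.17.0. Python 3.11.15 was used for the summaries and plots. The procedure was tested on simulated data.

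Named were the 10 genes, up to 3 called genes of each list or else the one with the lowest p, EGFR and LANCL2, pseudogenes named after a member, and the 5 entries closest in profile to SEC61G. Other neighbours of SEC61G, the genes at the ends of the lists' range and the NOMO genes were named after their values were seen. The members and lists were chosen with earlier results of these data known. Alternatives were another pseudocount (0.1), no minimum level or one of 1 FPKM, scaling by median ratios or quantiles, protein-coding genes only, limma without the trend, Ballgown's model, the replicate number as a block, summed entries, the ratio of the group mean FPKM, and each library left out.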

Additional observations from a re-analysis of the deposited data

How the results depend on the processing

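The log2 fold change of SEC61G, the partners' median and the difference between them kept their direction under all 16 alternatives. Limma without the trend and the changed minimum levels could not alter these 3 values. The replicate block gave the same values as leaving out HCC827/GR replicate 1. Leaving out 1 library gave -4.19 to -3.99, 0.14 to 0.23 and -4.39 to -4.19. Where HCC827 was left with 1 library, that library was assumed to vary like the others. The count of partners called lower stayed at 0 in the 15 alternatives with a test. The count called higher was 0 in place of 1 in Ballgown's model, with the replicate block and with any library left out (0 to 0). Calls over all entries also fell in these settings, from 1775 to 13 in Ballgown's model, to 0 with the replicate block and to between 489 and 962 with a library left out. In the machinery lists the count called lower was 0 in Ballgown's model, without a filter on low values and with the replicate block, 2 with protein-coding genes only and with quantile normalization (HSP90B1 added), and 0 to 0 with a library left out. The count called higher was 0 in the same 3 alternatives, 2 with a mean of at least 1 FPKM, with a pseudocount of 0.1 (TMEM147 added in both) and with protein-coding genes only (SRP54 added), and 0 to 1 with a library left out. The cause of these changes was not tested.

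The sign turned in partners that were not called. SSR4 was at -0.01 with median-ratio scaling and with quantile normalization (-0.0054 and -0.013), at -0.0010 with protein-coding genes only, at -0.0027 with the replicate block and without HCC827/GR replicate 1, at -0.0032 without HCC827/GR replicate 3 and between -0.027 and 0.048 over the libraries left out. SEC61A1 was at 0.17 and SSR2 at 0.072 with the replicate block and without HCC827/GR replicate 1, and SSR2 was at 0.023 without HCC827 replicate 3. Over the libraries left out, SEC61A1 ran from -0.40 to 0.17 and SSR2 from -0.32 to 0.072. Ballgown's model gave values beyond these ranges, -0.65 for SEC61A1 and -0.42 for SSR2. It gave 0.93 for SEC61B, which ran from 0.35 to 0.79 over the libraries left out. None of these genes was called in that model.

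The replicate numbers 2 and 3 are shared by both cell lines, but the correlations of same-numbered libraries' deviations (0.0328 and 0.0147) and the 2 shared numbers did not show them as pairs. With the replicate block SEC62 was at 0.59 with an adjusted p of 0.154. Over all alternatives the adjusted p of SEC62 ran from 0.0239 to 0.184. The median of all entries tested stayed between -0.01 and 0.02. Depth is unknown from FPKM, and with 3 libraries against 2 the wide intervals of SEC61A1, SEC61B and SSR3 limit what could be detected.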
